A study of Mus musculus with 12 samples.

Results

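The genes described here are 9 markers of retinal amacrine cells and of inhibitory transmission, Gad1, Gad2, Slc32a1, Slc6a9, Tfap2a, Tfap2b, Pax6, Chat and Th. They were chosen by gene symbol, as known markers, with earlier results of these data known. Each symbol matched 1 row of the deposited table, and they are 9 of its 56748 genes. RNA from mouse retina was sequenced in 12 libraries, 3 in each of 4 groups, at an age of 2 weeks. All mice carried RiboTag, an allele that adds an HA tag to the ribosomal protein Rpl22 where Cre is active, together with the i75-Rod-Cre transgene, in which a rhodopsin promoter drives Cre in rod photoreceptors. Controls were RiboTag;Shp2fl/+;i75-Rod-Cre littermates and are called Het here. Their samples are titled wt, but their rods carry only 1 intact copy of Ptpn11, the gene for the phosphatase Shp2. The knockout mice, called KO, were RiboTag;Shp2fl/fl;i75-Rod-Cre. From each genotype, whole-retina RNA was sequenced before TRAP (translating ribosome affinity purification) and rod RNA after pull-down of the HA-tagged ribosomes, from tissue frozen after perfusion with cycloheximide, which holds ribosomes on their mRNA. Nothing in the records says that replicates came from separate animals or pools, so p-values measure the spread between these libraries, which may be technical.

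Amacrine cells are the interneurons of the inner retina, and most release GABA or glycine onto bipolar, ganglion and other amacrine cells. GABA is made from glutamate by glutamate decarboxylase and is packed into synaptic vesicles, as glycine is, by a shared vesicular transporter, while glycinergic amacrine cells take glycine back up at the plasma membrane. Small subclasses add another transmitter, such as acetylcholine in starburst cells or dopamine in a sparse set of cells. Most members are not specific to amacrine cells. Pax6 is also found in ganglion, horizontal and Müller cells, and Tfap2a, Tfap2b, Slc32a1 and the decarboxylases are found in horizontal cells as well. In these bulk libraries, fewer cells of a type and less RNA per cell cannot be told apart.

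The promoters of 3 members are shown because the results turn on how differently these genes appear in rod RNA: Gad1 and Gad2 encode the 2 decarboxylases and were depleted there like most members, whereas Slc6a9 kept the highest level. RefSeq annotation on build GRCm38.p6 held 13 start sites for the 9 members, among them 3 for Slc6a9, 2 for Pax6 and 2 for Tfap2a. Each line gives the 250 bases before a start, 5′ to 3′ on the strand of the gene, with the first and the last of the Slc6a9 starts. Capitals mark matches to the AP-2 motif GCCNNNGGC, a palindrome bound by the products of Tfap2a and Tfap2b, or to the OTX/CRX motif TAATCC, read as GGATTA on the other strand and bound by photoreceptor homeodomain factors.
Gad1 (chr2:70561879-70562128, plus strand): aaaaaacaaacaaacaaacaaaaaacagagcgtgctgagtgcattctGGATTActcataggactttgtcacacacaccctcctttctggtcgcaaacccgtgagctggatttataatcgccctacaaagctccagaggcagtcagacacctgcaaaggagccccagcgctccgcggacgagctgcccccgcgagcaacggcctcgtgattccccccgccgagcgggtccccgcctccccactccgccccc
Gad2 (chr2:22622077-22622326, plus strand): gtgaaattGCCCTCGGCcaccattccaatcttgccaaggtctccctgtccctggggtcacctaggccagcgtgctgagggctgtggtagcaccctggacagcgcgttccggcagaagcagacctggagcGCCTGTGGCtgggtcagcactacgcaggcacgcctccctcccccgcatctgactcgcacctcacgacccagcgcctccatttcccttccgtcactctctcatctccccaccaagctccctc
Slc6a9, first start (chr4:117835008-117835257, plus strand): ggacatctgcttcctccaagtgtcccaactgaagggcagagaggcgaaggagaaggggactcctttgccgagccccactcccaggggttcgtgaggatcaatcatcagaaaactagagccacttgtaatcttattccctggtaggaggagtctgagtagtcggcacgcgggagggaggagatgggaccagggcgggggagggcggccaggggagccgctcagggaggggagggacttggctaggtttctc
Slc6a9, last start (chr4:117855297-117855546, plus strand): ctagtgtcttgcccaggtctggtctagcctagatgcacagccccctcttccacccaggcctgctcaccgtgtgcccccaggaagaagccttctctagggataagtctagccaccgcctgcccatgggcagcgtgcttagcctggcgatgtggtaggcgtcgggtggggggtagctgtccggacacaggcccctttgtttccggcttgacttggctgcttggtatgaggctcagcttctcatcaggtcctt

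The AP-2 letters occurred at 2 places before Gad2, and in 2 of the 13 member windows in all, the other being the first start of Pax6. Of all 32851 windows of the same length, 13.7% held it. The OTX/CRX letters occurred in 1 of the 13 windows, before Gad1, against 6.25% of all windows, and in none of the 3 Slc6a9 windows. These matches describe letters only. The deposited table gives 1 value per gene, so the starts of Slc6a9 could not be measured separately.

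The deposited values are whole numbers proportional to read counts, scaled to the same total in every library of a tissue fraction, and are called scaled values below. Read totals estimated from these numbers were 9990046 to 19216921 in retina and 11897548 to 25295893 in rods, so that 3 reads correspond to a scaled value of 1.93 to 4.36. The targeted gene Ptpn11 had scaled values of 2511, 2439 and 2431 in Het rods and of 1735, 2139 and 1971 in rods of KO mice, with no overlap. Of the 13144 genes tested between the rod groups, 18.2% had all KO rod libraries below all Het rod libraries after the scaling used for the tests. The table gives 1 value for the whole gene and does not separate its deleted part from the rest. The 8 rod markers summed to 143616 to 168030 ppm (parts of the library total) in rod libraries and to 46390 to 58742 in retina. Libraries differed in 2 other ways that touch the members. Lens crystallin transcripts (Cryaa, Cryba1 and Crygs) ranged from 5.64 to 36077 ppm in retina. The dependence of values on transcript GC content, measured as the median log2 deviation of the highest GC decile of genes minus that of the lowest, ranged from -0.83 to 0.90 among retina libraries, and in rods was -0.81, -0.23 and -0.42 in Het against 0.42, 0.76 and 0.28 in KO, so that it moved with genotype there.

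**Figure D1:**
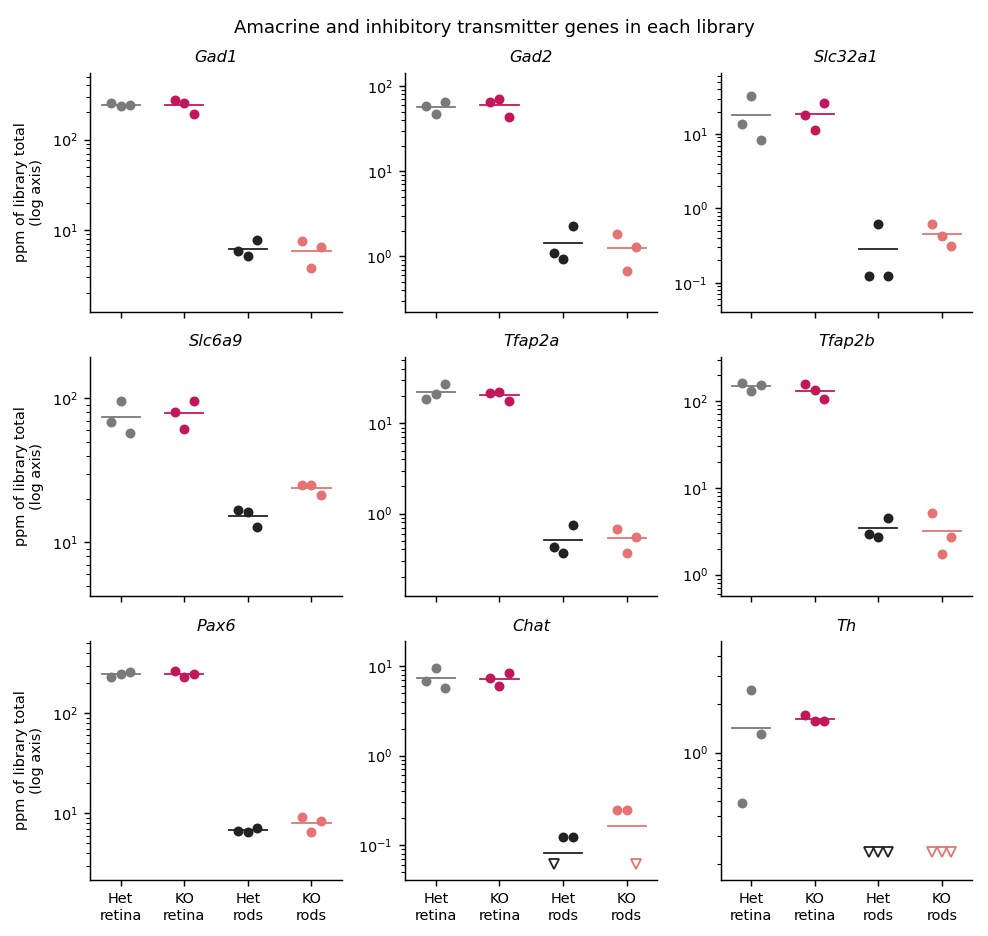
Value of each of the 9 genes in each library, in ppm of the library total on a log axis, with 3 points per group and the group mean as a bar. Open triangles mark a value of 0. All members were lower in every rod library than in every retina library, by the narrowest margin for Slc6a9, and the Het and KO retina groups overlapped for all 9.

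Gad1 and Gad2, the decarboxylases that make GABA, were abundant in retina and nearly absent from rod RNA. Scaled values of Gad1 were 3685, 3422 and 3561 in Het retina and 3952, 3745 and 2794 in KO retina. The Het rod libraries held 95, 84 and 125, and the KO rod libraries 123, 61 and 105. Every retina library lay far above every rod library, while the genotypes overlapped in both fractions. Gad2 had 855, 688 and 950 in Het retina, 952, 1028 and 622 in KO retina, 18, 15 and 37 in Het rods, and in KO rods 30, 11 and 21. It followed Gad1 at a lower level, again with the fractions apart and the genotypes overlapping. As a share of its library, the Gad1 level in rods was 2.55% ± 0.53 (SD, n = 3) of the retina mean in Het and 2.46% ± 0.81 (SD, n = 3) in KO, and for Gad2 the shares were 2.51% ± 1.28 and 2.13% ± 0.98.

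Slc32a1 encodes the vesicular transporter that loads both GABA and glycine. Its scaled values spread widely within a genotype, with 199, 477 and 121 in Het retina and 264, 165 and 376 in KO retina. Rod libraries held 2, 10 and 2 for Het and 10, 7 and 5 for KO. Both values of 2 lie below the value of 3 reads in their libraries (3.6 and 3.5), and the other values lie above it. The rod level was 1.57% ± 1.55 (SD, n = 3) of retina in Het and 2.44% ± 0.84 in KO.

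Slc6a9 encodes GlyT1, the plasma-membrane glycine transporter used in the retina by glycinergic amacrine cells. Its scaled values reached 1003, 1403 and 833 in Het retina and 1160, 887 and 1393 in KO retina. Het rods had 275, 263 and 208, and KO rods 405, 407 and 349. Slc6a9 was the only member with 208 or more in every rod library, and the only one whose rod values did not overlap between genotypes in the deposited numbers. Its rod level was 20.6% ± 2.96 (SD, n = 3) of retina in Het, with a range of 17.2% to 22.8%, and 30.1% ± 2.56 (SD, n = 3) in KO, with a range of 27.2% to 31.7%.

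Of the transcription factors, Tfap2a and Tfap2b varied more among retina libraries than Gad1, with SDs of 0.20 and 0.19 against 0.14 on the log2 scale. Tfap2a and Tfap2b, AP-2 factors of postmitotic amacrine and horizontal cells, had 271 to 393 and 1552 to 2315 over the 6 retina libraries. In rods Tfap2a had 7, 6 and 12 in Het and 11, 6 and 9 in KO, and Tfap2b had 48, 44 and 74 in Het and 83, 28 and 44 in KO. Both were therefore at 2.29% of retina in Het rods and at 2.59% and 2.42% in KO rods. Pax6, the homeodomain factor that retinal progenitors need to make most retinal cell types and that amacrine cells keep in maturity, had 3346, 3575 and 3785 in Het retina and 3797, 3344 and 3579 in KO retina. Its rod libraries had 108, 106 and 116 for Het, and for KO 148, 106 and 136. Pax6 varied least of the members among retina libraries, with an SD of 0.090 on the log2 scale, a spread below which 3.57% of the genes fell.

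Chat, the choline acetyltransferase of starburst amacrine cells, was low but measurable in every retina library, with 100, 137 and 83 in Het and 108, 86 and 120 in KO. In rods it had 0, 2 and 2 in Het and 4, 4 and 0 in KO, values that a few reads account for. Th, the tyrosine hydroxylase of dopaminergic amacrine cells, had 7, 36 and 19 in Het retina and 25, 23 and 23 in KO retina. It was 0 in all 6 rod libraries. The retina mean of Th was 24.9 times a floor of 3 reads over the 3 rod libraries in Het and 24.5 times in KO. Both sides are shares of the library total, with no further scaling between fractions. The retina means rest on 59 estimated reads in Het and 69 in KO, and their spread does not enter these ratios.

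Per kilobase of transcript, the order of levels in retina was led by the GABA enzyme and by Pax6. Gad1 had 72.4 ± 8.22 (SD, n = 6) ppm per kilobase and Pax6 had 55.5 ± 3.10, and their ranges overlapped. Tfap2b (23.9 ± 3.45) and Slc6a9 (22.0 ± 4.90) followed and also overlapped each other. Gad2 had 10.2 ± 1.93, Slc32a1 had 6.57 ± 3.34 and Tfap2a had 6.15 ± 0.93, with Slc32a1 overlapping both of the others. Chat (2.55 ± 0.50) overlapped the lowest Slc32a1 library, but not Tfap2a, and Th (0.78 ± 0.33) lay below all others. Lengths are those of the longest protein-coding transcript, and this order holds only as far as that transcript is the one made in retina.

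The first comparison asked how far each member was depleted in rod TRAP RNA. Between Het rods and Het retina, 8 of the 9 members passed the filter on low values and 8 of 8 were called lower, against 36.2% of the 16161 genes tested. A gene was called at an adjusted p below 0.05 from limma, a linear model fitted gene by gene with a shared estimate of the spread, and an absolute log2 fold change above 0.5. Th did not pass the filter in this comparison, and Slc32a1, Tfap2a and Chat passed it only through the retina libraries, where they are high, so that the count describes these genes and gives no support of its own. The rod and retina groups did not overlap for any tested member, which was so, with rods lower, for 39.2% of the genes. The log2 fold change, on the scale of log2 of the scaled value plus 2, was -4.85 (SE 0.16) for Gad1, -4.86 (SE 0.32) for Gad2 and -5.08 (SE 0.61) for Slc32a1. It was -4.76 for Tfap2a, -4.99 for Tfap2b, -4.72 for Pax6 and -4.88 for Chat. These 7 genes lay between the lowest 2.12% and 4.72% of all genes. Slc6a9 was lower by much less, at -1.81 (SE 0.22, 95% interval -2.31 to -1.31, adjusted p = 0.00013), a value below which 26.2% of the genes lay.

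The same comparison in KO, in libraries that the first did not use, gave the same split. The 9 members passed the filter, with Slc32a1, Tfap2a, Chat and Th passing through retina only, and 9 of 9 were called lower, against 36.0% of the 16167 genes tested. Log2 fold changes were -4.80 for Gad1, -4.94 for Gad2, -4.46 for Slc32a1, -4.48 for Tfap2a, -4.88 for Tfap2b, -4.37 for Pax6 and -4.38 for Chat. Th had -3.50, a fitted value that depends on the pseudocount because its rod libraries were all at 0. Slc6a9 was again the least depleted, at -1.14 (SE 0.18, 95% interval -1.56 to -0.72, adjusted p = 0.00061). With scaling by the library total alone, the median of all genes moved from -0.08 to -0.51 in Het and from 0.01 to -0.54 in KO, and every tested member was still called lower. Replicate numbers paired the Het libraries of the 2 fractions, and a fit with the replicate number as a block gave the same 8 calls.

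**Figure D2:**
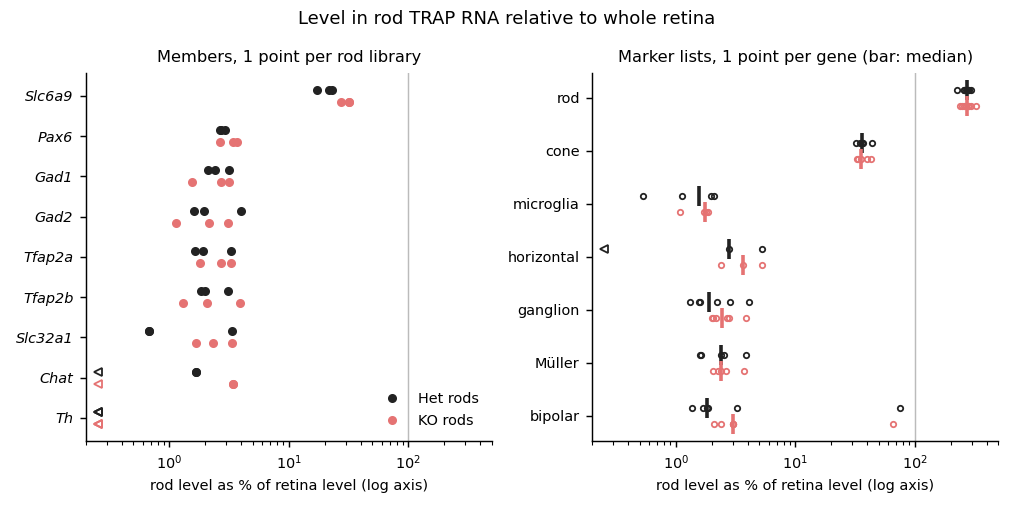
Level in rod TRAP RNA as a percentage of the retina mean of the same genotype, on a log axis, for the 9 members (left, 1 point per rod library) and for genes of 7 cell type marker lists with a retina mean of at least 10 (right, 1 point per gene, with the median as a bar). Open triangles mark 0 and the grey line marks 100%. The members without Slc6a9 and Th average 1.12% to 2.75% in Het, in the range of the Müller, ganglion, horizontal, microglia and most bipolar markers, whereas Slc6a9 lies between them and the cone markers.

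The level at which 7 members remained in rod RNA was close to that of markers of most other non-photoreceptor cells. Leaving out Slc6a9 and Th, the 7 members averaged 1.12% to 2.75% of the retina level in Het rods, while the KO rods had 2.13% to 3.25%. Medians of marker genes in Het rods were 2.40% for Müller glia, 1.88% for ganglion cells, 1.84% for bipolar cells, 2.78% for horizontal cells and 1.55% for microglia, while cone markers had 36.2% and rod markers 271%. Lens markers had a median of 1.40%. Vascular and pigment epithelium markers, with 2 genes measured in each list, ran higher in part, with Pecam1 of endothelium at 38.0% and Cldn5 at 0, and Rgr and Rpe65 of pigment epithelium at 10.9% and 6.70%. Slc6a9, at 20.6%, lay above every Müller, ganglion, horizontal and microglial marker gene measured, the highest of which was Lhx1 at 5.25%. Among the bipolar markers, Prkca was at 75.7%, and the other genes of that list at 3.25% or less. Whether rods themselves hold Slc6a9 mRNA or whether it came with RNA of other cells was not tested. The other 8 members together had 16.4 to 22.6 ppm in the Het rod libraries, against 13.7 to 25.1 in KO, which is 1.89% to 3.46% of their retina sum over the 6 libraries.

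In whole retina, no member was called between KO and Het. Of 9 members tested, 0 were called, against 0% of the 16984 genes tested with limma, of which 141 (0.83%) had an unadjusted p below 0.05, and 0 of the members did. Log2 fold changes of KO against Het were -0.02 for Gad1 (95% interval -0.37 to 0.32), 0.06 for Gad2 (-0.44 to 0.56), 0.02 for Pax6 (-0.28 to 0.32) and -0.17 for Tfap2b (-0.55 to 0.20). For Slc6a9 the value was 0.11 (-0.46 to 0.69), for Tfap2a -0.09 (-0.55 to 0.36) and for Chat 0.01 (-0.61 to 0.62). The intervals of Slc32a1 (0.18, -1.01 to 1.37) and Th (0.42, -0.75 to 1.60) were the widest, and changes within those limits were not detectable. With the GC trend removed the Slc32a1 interval was -0.32 to 0.47. The groups overlapped for all 9, while 3.54% of all genes had groups that did not.

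In rod RNA, 5 members passed the filter and 1 was called between KO and Het, Slc6a9, which was higher in KO. Over all 13144 genes tested, 12% were called higher and 13.6% in either direction. Its log2 fold change was 0.75 (SE 0.14, 95% interval 0.45 to 1.05, adjusted p = 0.0043), and all 3 KO libraries lay above all 3 Het libraries, as was so for 25.2% of the genes. With the GC trend of each library removed, the value was 0.21 (95% interval -0.08 to 0.49, adjusted p = 0.39). In rods this trend was split by genotype, so its removal also takes out any genotype difference that goes with GC content. A GC effect and an effect of genotype cannot be told apart here. The Slc6a9 transcript has a GC content of 57.0%, above that of 87.1% of the genes tested in retina. Within the Het rods, the library with the most negative GC trend (-0.81) held the highest Slc6a9 value, 275, and within the KO rods the library with the smallest trend (0.28) held the lowest, 349. With 3 libraries per group, whether Slc6a9 followed the trend within a genotype was not tested. A fit of all 4 groups together, in which retina libraries also set the spread, gave 0.77 with an adjusted p of 0.19.

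Gad1, Gad2, Tfap2b and Pax6 were not called between the rod groups. Log2 fold changes were -0.01 for Gad1 (95% interval -0.55 to 0.54), -0.06 for Gad2 (-0.94 to 0.82), -0.09 for Tfap2b (-0.89 to 0.72) and 0.33 for Pax6 (-0.03 to 0.69, adjusted p = 0.16). After scaling, the 3 KO libraries lay above the 3 Het libraries for Pax6, although the lowest deposited values, 106, were equal. With the GC trend removed the Pax6 value was 0.34 (95% interval 0.02 to 0.66, adjusted p = 0.19). Slc32a1, Tfap2a, Chat and Th were too low in rods to be tested. The study set aside genes depleted in rods before it compared genotypes, without stating its thresholds. Taking out the genes called lower in Het rods here left 0 of the 9 members to test. Th, not tested in that comparison, fell to the filter on low values.

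**Figure D3:**
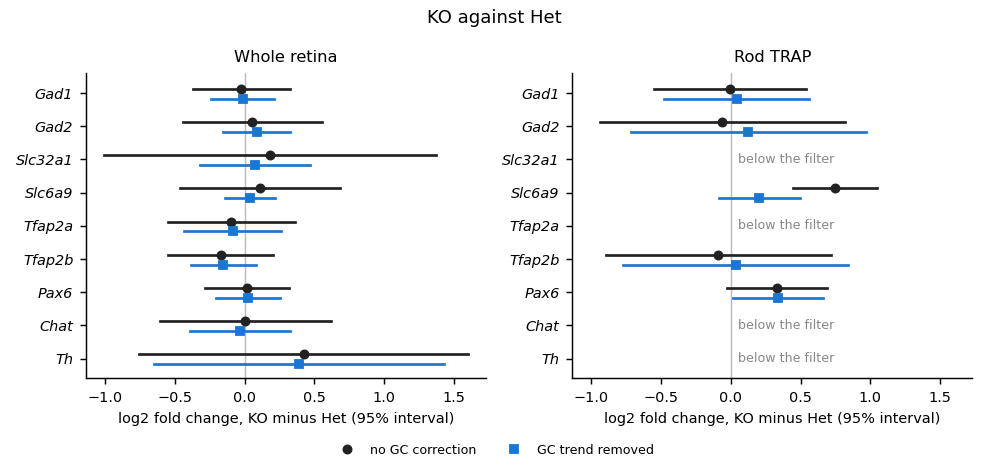
Log2 fold change of KO against Het for each member in whole retina (left) and rod TRAP RNA (right), with 95% intervals from limma. Black circles are values without a GC correction and blue squares those with the GC trend of each library removed. Every interval in retina spans 0, and in rods Slc6a9 stands above 0 without the correction and spans 0 with it, while Pax6 does the reverse.

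An interaction term fitted to the 12 libraries tested whether the KO effect differed between the fractions. Of 9 members, 0 were called, and 0% of the 17226 genes tested were, with 520 (3.02%) at an unadjusted p below 0.05 in limma. The difference for Slc6a9 was 0.67 (95% interval -0.00 to 1.34, unadjusted p = 0.051, adjusted p = 0.89), and for Pax6 0.35 (-0.05 to 0.74, adjusted p = 0.89). The rise of Slc6a9 in rods was thus not shown to be particular to rods.

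Among the 6 retina libraries, the members did not vary as 1 group. Slc32a1 ran parallel to Slc6a9 (Pearson r = 0.98) and to Chat (r = 0.99), while Slc6a9 ran opposite to Gad2 (r = -0.91). Gad1 ran with Gad2 (r = 0.85) and with Tfap2b (r = 0.81). These correlations are over only 6 libraries. The libraries differ in depth and in GC trend, and within a library all members share both. The GC content of the transcript is 61.9% in Slc32a1, 57.0% in Slc6a9 and 54.3% in Chat, and 44.1% in Gad2, 46.3% in Tfap2b and 48.4% in Gad1. For other pairs of close GC content, r was 0.38 between Gad1 and Tfap2a (48.7%), -0.31 between Gad1 and Pax6 (49.3%) and 0.45 between Chat and Th (54.1%). Pax6 varied least and Th had the fewest reads, which limits what these values can show. The part of GC content in these profiles was not tested. Het retina replicate 2 and KO retina replicate 3, the libraries with GC trends of 0.86 and 0.90, held the highest values of Slc32a1, Slc6a9 and Chat within their genotypes and the lowest values of Gad2.

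Removing the GC trend narrowed this spread. The SD over the 6 libraries on the log2 scale went from 0.74 to 0.22 for Slc32a1, from 0.33 to 0.045 for Slc6a9, from 0.28 to 0.083 for Chat and from 0.27 to 0.12 for Gad2. After it, r was -0.51 between Slc32a1 and Slc6a9 and 0.55 between Slc6a9 and Gad2, both of the opposite sign, while Slc32a1 and Chat stayed at 0.85 and Gad1 and Gad2 at 0.78. Th kept its spread, with an SD of 0.71 before and 0.65 after, and Pax6 had 0.090 and 0.11. Th is the least abundant member, with 59 estimated reads over the Het retina libraries and 69 over KO. KO retina replicate 3, which had the lowest sum of the members at 737.8 ppm (against 793.1 to 883.4 in the other 5 libraries, with Het at 810.9 to 825.2), was also the library with the most lens RNA, 36077 ppm, and the highest GC trend, and the part of these in its low sum was not tested.

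**Figure D4:**
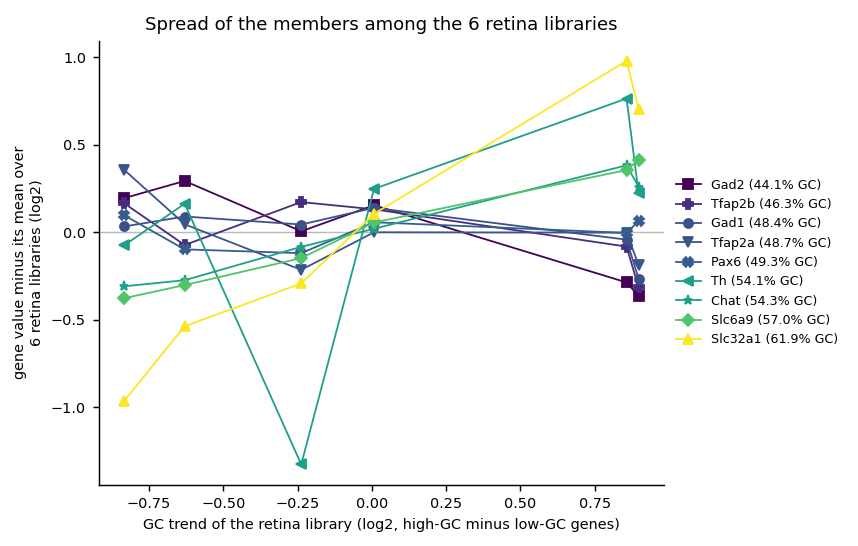
Deviation of each member from its mean over the 6 retina libraries (log2) against the GC trend of the library (log2, highest GC decile of genes minus lowest), coloured by the GC content of the transcript. Slc32a1, Slc6a9 and Chat climb with the trend and Gad2 declines, Pax6 stays close to its mean, and Th is low in Het retina replicate 1 without following the trend.

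The genes whose profile over the 6 retina libraries was most like the mean log2 profile of the members were Araf (r = 0.96), Sfswap, Trappc2l, Trmu and 2900026A02Rik, the last at r = 0.95, among 11340 genes with a mean of at least 100. With the GC trend removed they were Osbpl3 (r = 0.98), Cdc42ep4, Yipf4, Mblac2 and Lrp12 (r = 0.93) among 11285 genes. No gene was in both lists of 5. Before the correction Slc32a1 and Th spread most (SD 0.74 and 0.71), so they weigh most in the mean profile. Gad1, Gad2, Tfap2a and Tfap2b then ran opposite to the mean of the other members (r = -0.36, -0.64, -0.16 and -0.56). The genes were picked as the highest r of many over 6 libraries, so these values are descriptive only.

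Other genes of the same pathways were taken from 5 lists, of which 47 genes passed the filter in Het. In rods 43 of these were called lower, against 36.2% of all genes, and 1 was called higher, against 22.6%. Of the 47, 27 were below 10 in at least 1 Het rod library and could not have passed on the rod libraries alone, so that their counts describe these genes and support nothing further. Of 9 genes for the uptake, synthesis and breakdown of GABA and glycine, 8 were called lower in Het rods than in retina. The remaining 1 was called higher in rods. Slc6a11 (GAT3), a plasma-membrane GABA transporter, was at 1.68% of retina with a log2 fold change of -5.40, and Slc6a5, the neuronal glycine transporter GlyT2, was at 2.02%. Slc38a1, a glutamine transporter, kept 10.9% (log2 -2.76), and Aldh5a1, the mitochondrial enzyme that completes GABA breakdown, kept 18.7% (log2 -1.95).

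Of 18 amacrine fate and subtype factors, 15 passed the filter in Het and 14 were called lower in rods, against 36.2% of all genes. Of the 15, 12 were below 10 in a Het rod library and passed only through retina. Neurod4, a bHLH factor of amacrine genesis, was at 1.71% of retina (log2 -5.36), Isl1, a LIM factor of starburst, bipolar and ganglion cells, at 2.46% and Ebf3 at 2.20%. Meis2, a TALE homeodomain factor found in GABAergic amacrine cells, was the exception, with 2081, 1799 and 1969 in Het retina, 2026, 1990 and 1638 in Het rods and a log2 fold change of 0.23 (adjusted p = 0.13). The early amacrine factors Ptf1a and Foxn4 were at 0 or 1 in all retina libraries. In retina 0 of 16 tested and in rods 0 of 6 tested were called between genotypes, against 0% and 13.6% of all genes. With 6 genes, the count in rods cannot be set apart from that share.

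All 4 cholinergic genes were called lower in Het rods, against 36.2% of all genes, and 3 of them passed the filter only through retina. Slc18a3, the vesicular acetylcholine transporter, Slc5a7, the choline transporter, and Megf10, a spacing receptor of starburst cells, were at 0.71%, 1.85% and 2.03% of retina. Ache, acetylcholinesterase, kept 27.0%, with a log2 fold change of -1.40. Like Slc6a9, Ache was called higher in KO than in Het rods, with 102, 177 and 133 in Het, 226, 214 and 193 in KO and a log2 fold change of 0.75 (SE 0.19, adjusted p = 0.016). With the GC trend removed its value was -0.04 (adjusted p = 0.91), and the GC content of its transcript is 60.4%. For Ache too, a GC effect and an effect of genotype cannot be told apart in rods.

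Among 7 monoamine genes, 4 passed the filter in Het, 1 of them only through retina. In rods 3 were called lower, against 36.2% of all genes. They include the monoamine oxidases Maoa and Maob, at 15.2% and 3.54% of retina. Slc18a2, the vesicular monoamine transporter, was not called, with 129, 133 and 152 in Het retina and 133, 73 and 120 in Het rods. The dopamine transporter Slc6a3, at 2 to 6 in retina, and Gch1, which makes the cofactor of Th, at 2 to 13, were 0 in all 6 rod libraries. Of 16 peptides, calcium-binding proteins and other subtype genes, 15 passed the filter and 14 were called lower in Het rods, against 36.2% of all genes. Of the 15, 9 passed only through retina. Genes called lower include Calb2 (calretinin) at 1.59%, Prox1 at 2.05% and Calb1 (calbindin) at 2.02%. The exception was Gjd2, connexin 36, the gap junction protein that couples AII amacrine cells and also photoreceptors, at 54.4% of retina with a log2 fold change of -0.43, short of the threshold on size. In none of these 5 lists was a gene called between KO and Het retina, and between the rod groups Ache was the only 1 called of 23 tested, against 13.6% of all genes.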

How the data were processed

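The 12 libraries (whole retina and rod TRAP, Het and KO, 3 of each) were assigned to groups from the genotype and tissue labels, and replicate numbers come from the sample titles. The deposited values are treated as a score proportional to read counts. Before depositing them, the authors scaled each library to a common total within a fraction (14525527 to 14527992 in retina and 16263948 to 16265259 in rods) and rounded to whole numbers. This step was inferred from the values and is not stated in the sources used here. The submitters' processing notes name CASAVA 1.8.2, HISAT2, DESeq2, edgeR and build GRCm39 without their roles. The counting tool, annotation and strand of counting are not given in the sources used here. Columns belonging to other samples numbered 0.

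The members and the lists of related genes were chosen with earlier results of these data known. Named genes are the 9 members, from each list up to 4 genes with the highest mean in Het retina and any called between genotypes, and the 5 genes most like the mean member profile. Gjd2 and Slc18a2, which were not called lower in Het rods, fall under this rule. Aldh5a1, and further list and marker genes outside the rule, were named after their values were seen. Some genes that the rule would name are not reported here.

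The design allowed for raw counts or scaled values. Because the values are scaled, limma 3.58.1 (trend and robust options) in R 4.3.3 was run on log2 of the value after TMM scaling plus a pseudocount of 2, for genes that reached 10 in 3 or more of the compared libraries and summed to 15 or more. Adjustment followed Benjamini and Hochberg over all genes tested. With 3 libraries against 3 the smallest two-sided exact permutation p is 0.1, so no permutation test of a single gene could pass 0.05. Read totals came from a search for the scaling factor that best explains the gaps among low whole numbers. For replicate 3 of Het retina this factor was not distinguishable from 1. Floors cover counting error only.

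GC content and transcript length are those of the longest protein-coding transcript of GENCODE vM21 (GRCm38). The GC trend of a library was a lowess curve (span 0.3) of log2 deviations against GC content, known for 98.3% to 98.8% of genes tested. Same-numbered Het rod and Het retina libraries deviated together (r = 0.46, 0.41 and 0.25), so the numbers pair these libraries. In the other comparisons at least 1 pair had r below 0.1. Python 3.11.15, NumPy 2.4.6, pandas 2.3.3 and matplotlib 3.10.9 were used. The scaling-factor search and the model fit were tested on simulated data. The libraries simulated for the fit had a fixed level of noise and no GC trend. They therefore cannot test calls where the GC trend is split by genotype. A minimum share of recovered changes was required in the other comparisons but not in the interaction. Alternatives were RLE or library-total scaling, pseudocounts of 0.5 and 8, no filter, a replicate block, all 4 groups in 1 fit, GC trend removal, limma without its options, removal of rod-depleted genes, and each library left out in turn. GC trend removal together with the block was added after the data were seen.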

Additional observations from a re-analysis of the deposited data

How the results depend on the processing

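The members called lower in rods were 8 to 9 in Het and 9 in KO under every alternative run, and 0 were called between KO and Het retina or in the interaction. The 1 call between KO and Het rods, Slc6a9, became 0 with the GC trend removed, with the GC trend and a replicate block in 1 fit (log2 0.21, adjusted p = 0.30), with all 4 groups in 1 fit, and with rod-depleted genes removed, where 0 members were left to test. With each rod library left out in turn the value was 0.62 to 0.82 with adjusted p of 0.0034 to 0.021, and under the other alternatives 0.64 to 0.75 with adjusted p of 0.00023 to 0.043. The replicate block without the GC correction left 1 call there and changed no other call. Outside the Het pair of fractions, same-numbered libraries did not deviate together in every pair. Lens transcripts nonetheless rose in the same order in KO retina (3498, 8923 and 36077 ppm) and KO rods (83.4, 172 and 537 ppm). Whether same-numbered KO libraries share tissue was not tested.

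Values near 0 changed sign without being called. In retina Chat was -0.0097 with library-total scaling, -0.0088 with all 4 groups and -0.030 with the GC trend removed, with or without the block. In rods Gad1 was 0.014 with all 4 groups, and Gad1, Gad2 and Tfap2b were 0.042, 0.13 and 0.035 with the GC trend removed, with or without the block. In the interaction Gad1 was -0.043 with RLE and -0.070 with library-total scaling, Tfap2b was -0.0048 with the latter, and Gad2 and Slc32a1 were 0.065 and -0.034 with the GC trend removed, with or without the block. Leaving out each library in turn gave, in retina, Pax6 -0.038 to 0.070, Chat -0.15 to 0.20, Th -0.13 to 0.91, Gad2 -0.076 to 0.25, Slc32a1 -0.25 to 0.72, Slc6a9 -0.074 to 0.32, Tfap2a -0.22 to 0.061 and Gad1 -0.10 to 0.10. In rods it gave Gad1 -0.21 to 0.24, Gad2 -0.36 to 0.30 and Tfap2b -0.49 to 0.22, and in the interaction Gad1 -0.18 to 0.34, Tfap2b -0.29 to 0.46, Th -0.89 to 0.12 and Gad2 -0.39 to 0.28. The cause was not tested.

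Over all genes, the 1784 calls between KO and Het rods became 347 with the GC trend removed, 404 with the block added, 1061 without Het rod replicate 1 and 0 with all 4 groups in 1 fit. The share of higher calls there was 88.5%, against 67.2% with library-total scaling and 52.2% with the GC trend removed. Between rods and retina it was 38.4% in Het, against 13.6% and 57.4%, and 42.8% in KO, against 12.7% and 58.1%. The rod values of Slc32a1, Tfap2a, Chat and Th lie near the value of 3 reads, so the depth limits what can be said of them in rods.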
